A study of Homo sapiens with 7 samples.

Results

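Tight junctions seal the space between epithelial cells. Claudins form the sealing strands together with occludin, and the cytoplasmic TJP scaffolds (zonula occludens proteins) tie the strands to actin. Connexins build gap junctions, channels that let small molecules pass between neighbouring cells. In the mammary gland the set of claudins and connexins differs between luminal and basal cells, and MCF-10A, a non-transformed human breast epithelial line, comes from that tissue.

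The genes followed here were 9 of this kind: the claudins CLDN1, CLDN4 and CLDN7, the scaffolds TJP1 and TJP3, the membrane proteins OCLN (occludin) and F11R (junctional adhesion molecule A), and the connexins GJA1 and GJB2. Every probe whose symbol in the platform annotation is a listed gene was taken, which gave 11 probes for 8 genes out of 19304 named genes. The annotation used here names no probe F11R, and that gene was not analysed here.

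The study compared MCF-10A cells with a stable knockdown of Brit1 by short hairpin RNA (shBrit1) and MCF-10A cells with a scrambled hairpin (shControl). The submitters place Brit1 among the genes of homologous recombination, a form of DNA repair. The Brit1 hairpin came in by lentivirus and stable cells were selected, both groups are labelled as stable hairpin lines, and no cells without a hairpin were analysed here. Cells were harvested at 48 h of culture, and their RNA was read on 1-colour bead arrays, with 3 shControl and 4 shBrit1 arrays that the submitters call biological replicates. The labels speak of the Brit1 hairpin in the singular and do not say whether the selected cells are a pool or a clone. Brit1 itself was not analysed here, and groups are named as labelled.

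A detection p-value under 0.05 was reached by 16537 to 17343 of 48701 probes per array, and 17967 probes with such a value on at least 3 of the 7 arrays were tested. Probes of GJA1, CGNL1, ILDR1, AMOT and KRT19, among others, passed this filter through the shBrit1 arrays, where they were higher. With 7 arrays, their number sets the precision. Levels below are background-corrected, quantile-normalized signals on the log2 scale, and differences are shBrit1 minus shControl. Replicate 3 of shControl stood apart from the other controls (SD of the difference across tested probes 0.53 and 0.51 log2, against 0.19 between replicates 1 and 2 and 0.16 to 0.23 among the shBrit1 arrays). Among the results recomputed without it, those that moved most are given both ways. Of 10 basal and general epithelial markers 6 had a probe, and all 6 were detected on every array, among them KRT5, KRT14 and CDH1.

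Each of the 8 genes with a probe had 1 probe that was tested. TJP3, CLDN1 and GJA1 were higher in shBrit1, GJB2 and TJP1 were lower, and CLDN4, CLDN7 and OCLN did not pass the test (limma, adjusted p under 0.05). Among all 12372 tested genes 29.5% were higher and 30.1% were lower, 59.6% in all, so 5 of 8 is near the background share. The groups did not overlap in those 5 genes, against 61.8% of all genes. The median log2 difference of the 8 genes was 0.14, beside -0.01 for all genes. The members split in direction, within the scaffolds (TJP3 against TJP1) and within the connexins (GJA1 against GJB2). GJA1 was tested only because the shBrit1 arrays detected it. The same counts, 3 higher and 2 lower, were found without shControl replicate 3, where 34.4% and 34.8% of all genes were called.

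**Figure D1:**
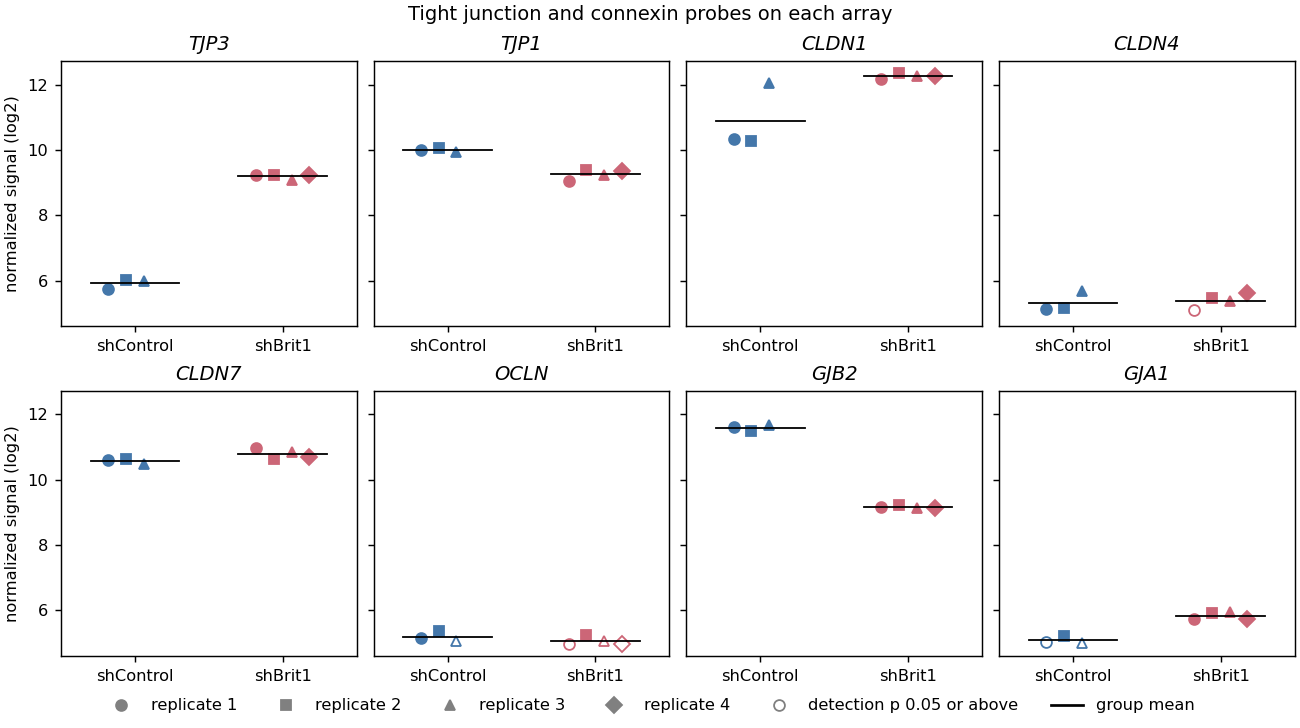
Normalized log2 signal (y axis) of the 8 tested probes on each of the 3 shControl and 4 shBrit1 arrays. Marker shapes give the replicate, open markers a detection p-value of 0.05 or above, and lines the group means. TJP3 and GJB2 separate widely and in opposite directions, while the third control array of CLDN1 lies near the shBrit1 arrays at 12.05.

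The promoters of the members with the largest rise and the largest fall are shown, since these carry the clearest differences. They span 250 bases before to 50 bases after a start site in RefSeq on GRCh38.p14, in lower case, with capitals for matches on either strand to CAGGTG (an E-box variant bound by Snail and ZEB repressors), GGGCGG (a GC box), AGGAAG (an ETS core), AACCGGTT (a Grainyhead site) and TATAAA.
TJP3, upstream start, chr19:3708134-3708433, plus strand: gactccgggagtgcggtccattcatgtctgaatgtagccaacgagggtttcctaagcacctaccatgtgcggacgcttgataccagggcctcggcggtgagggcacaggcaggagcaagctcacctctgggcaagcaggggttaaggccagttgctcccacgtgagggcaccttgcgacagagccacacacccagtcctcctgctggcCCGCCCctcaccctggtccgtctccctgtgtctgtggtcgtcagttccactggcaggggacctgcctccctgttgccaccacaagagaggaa
TJP3, downstream start, chr19:3721487-3721786, plus strand: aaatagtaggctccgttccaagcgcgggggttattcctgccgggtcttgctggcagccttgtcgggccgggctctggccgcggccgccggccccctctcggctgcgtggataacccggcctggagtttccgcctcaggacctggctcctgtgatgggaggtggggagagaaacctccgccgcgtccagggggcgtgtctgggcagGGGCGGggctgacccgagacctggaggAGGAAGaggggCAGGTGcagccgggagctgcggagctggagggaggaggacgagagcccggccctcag
GJB2, chr13:20192889-20193188, minus strand: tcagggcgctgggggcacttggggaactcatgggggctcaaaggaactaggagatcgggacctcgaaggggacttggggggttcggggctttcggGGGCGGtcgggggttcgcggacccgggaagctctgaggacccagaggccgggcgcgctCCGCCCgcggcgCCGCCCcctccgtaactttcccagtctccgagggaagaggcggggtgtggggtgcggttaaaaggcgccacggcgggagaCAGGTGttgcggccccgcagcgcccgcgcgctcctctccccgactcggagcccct
The downstream TJP3 promoter held an ETS core at -18 to -13 and an E-box at -7 to -2 relative to the start site. The GJB2 promoter held an E-box at -5 to 1 and 3 GC boxes. The gene that rose and the gene that fell thus both had the E-box letters next to a start. The array does not tell which TJP3 start was used.

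Over the 35116 promoters of this length in the table, 20.6% held the E-box letters, 45.0% the GC box, 33.6% the ETS core, 0.134% the Grainyhead site and 11.5% the TATA letters. RefSeq gave 14 promoters for the 8 genes with a probe, and the windows of the OCLN pair overlap. Of these, 6 held the E-box, 10 the GC box, 8 the ETS core and 0 either of the others. CLDN7 had 5 E-box matches in 1 of its 2 windows and did not pass the test, and CLDN1 had 0. A match describes letters only and shows no binding.

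Among the scaffolds, TJP3 showed the largest difference of the list. Its product, ZO-3, is a scaffold found mainly in epithelial cells. Its log2 signal was 5.76, 6.03 and 5.99 on the 3 shControl arrays, and 9.24, 9.25, 9.09 and 9.23 on the 4 shBrit1 arrays. All arrays detected it, every shBrit1 array lay far above every control, and the third control array did not stand out. The deposited bead signals, before any correction, ran from 104 to 128 in shControl and from 578 to 682 in shBrit1. TJP3 was thus 9.67-fold higher in shBrit1, with group means of 9.20 ± 0.07 (SD, n = 4) and 5.93 ± 0.14 (SD, n = 3) in shControl (log2 difference 3.27, SE 0.10, limma adjusted p = 1.13e-07). Only 53 of the 12372 genes (0.428%) had a log2 difference as high. The size depends on the background correction, and with the authors' log2 values the difference was 2.40.

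TJP1 encodes ZO-1, the scaffold present at nearly all tight junctions, which also sits at gap junctions. Its log2 signal was 10.01, 10.06 and 9.93 in shControl, and 9.04, 9.39, 9.22 and 9.37 in shBrit1. The groups did not overlap, and replicate 1 was the lowest of the shBrit1 arrays. TJP1 was 1.68-fold lower in shBrit1, at 9.25 ± 0.16 (SD, n = 4) beside 10.00 ± 0.06 (SD, n = 3) in shControl (log2 difference -0.75, SE 0.11, adjusted p = 0.000398). TJP1 and TJP3 thus changed in opposite directions on the same arrays.

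Among the claudins, CLDN1 was the only member called. Claudin-1 is a barrier-forming claudin of many epithelia, needed for the skin barrier in mice. Its log2 signal was 10.33, 10.28 and 12.05 on the shControl arrays, and 12.17, 12.35, 12.25 and 12.27 on the shBrit1 arrays. The third control array was thus close to the shBrit1 arrays and 1.74 above the mean of the other controls. Its deposited bead signal of 4419 there lay inside the shBrit1 range of 4163 to 5188, while the other controls stood at 1343 and 1533. Over all 7 arrays CLDN1 was 2.59-fold higher in shBrit1, at 12.26 ± 0.07 (SD, n = 4) beside 10.89 ± 1.01 (SD, n = 3) in shControl (log2 difference 1.37, SE 0.38, adjusted p = 0.0133).

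The CLDN1 call rests on which controls are used. Without shControl replicate 3 the difference was 3.87-fold (log2 difference 1.95, SE 0.09, limma adjusted p = 8.09e-09). Without shControl replicate 2 the log2 difference was 1.07 and the call was lost (adjusted p = 0.0507), and without replicate 1 it was 1.09 (adjusted p = 0.0497). CLDN1 was not alone in this. In 1044 of 7371 called genes (14.2%) the third control was nearer to the shBrit1 mean than to the other controls. On that array the basal keratin gene KRT14 was 1.70 above, and the epithelial adhesion gene EPCAM 1.16 below, the mean of the other controls. The luminal keratin genes KRT18, KRT8 and KRT7 shifted by -2.02, -1.58 and -1.25. Their part in the CLDN1 level was not tested.

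**Figure D2:**
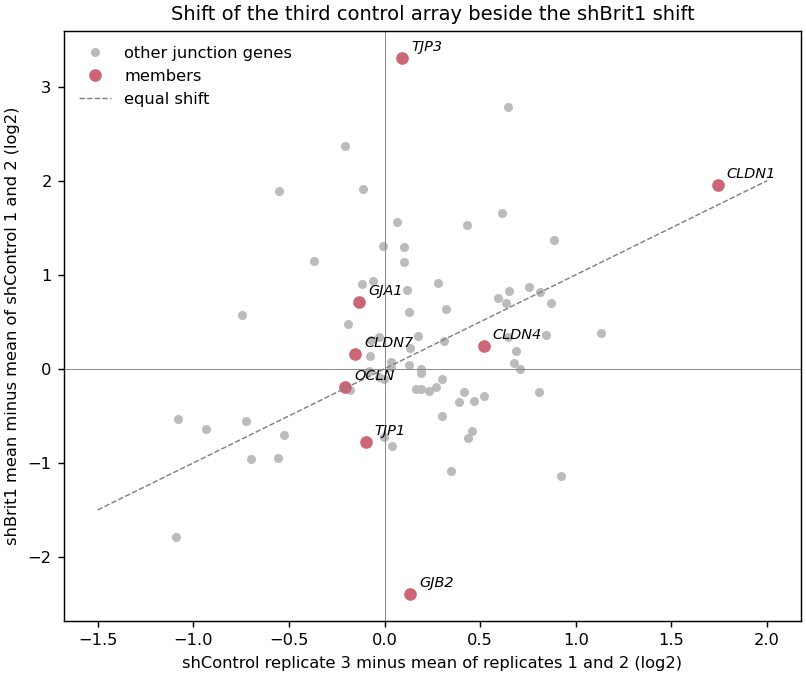
Shift of shControl replicate 3 (x axis, log2) beside the shift of the shBrit1 mean (y axis, log2), each against the mean of shControl replicates 1 and 2, for the 8 tested members (red) and the other tested junction genes (grey). CLDN1 lies near the line of equal shift at 1.74 and 1.95, whereas TJP3 and GJB2 moved in shBrit1 with a shift of 0.09 and 0.13 on the third control array.

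CLDN4 and CLDN7 gave no call. Claudin-4 is a barrier claudin and a receptor for a Clostridium toxin, and its probe was near background on every array. The log2 signal of CLDN4 was 5.15, 5.16 and 5.67 in shControl, and 5.10, 5.47, 5.37 and 5.62 in shBrit1, with the groups overlapping (log2 difference 0.07, SE 0.17, limma adjusted p = 0.766). It was detected on 3 of 4 shBrit1 arrays, and shControl replicate 3 was 0.52 above the mean of the other controls. Without that array the log2 difference was 0.24 (adjusted p = 0.128). CLDN7, a claudin of the basolateral membrane as well as of tight junctions, was clearly detected throughout. Its log2 signal was 10.61, 10.64 and 10.47 in shControl, and 10.96, 10.64, 10.84 and 10.70 in shBrit1. These values overlapped (log2 difference 0.21, SE 0.11, adjusted p = 0.127), and with median scaling the difference was -0.15, beside a median of -0.15 for all genes under that scaling.

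OCLN, the gene of the strand protein occludin, was dim on all its 4 probes. Of these, 3 were not detected on any array, with log2 signals of at most 4.91, and were not tested. The fourth was detected on 2 of 3 shControl and 1 of 4 shBrit1 arrays. It read 5.15, 5.37 and 5.06 in shControl, and 4.98, 5.26, 5.07 and 4.97 in shBrit1, with overlap (log2 difference -0.12, SE 0.11, limma adjusted p = 0.390). No call was made for occludin mRNA, except with array quality weights (log2 difference -0.22, adjusted p = 0.0494).

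Of the connexins, GJB2 encodes connexin 26, the gap junction protein of many epithelia, whose loss causes hereditary deafness. Its log2 signal was 11.59, 11.50 and 11.68 in shControl, and 9.15, 9.22, 9.12 and 9.12 in shBrit1. Every array detected it and the spread within each group was small beside the gap. The deposited bead signals were 3147 to 3539 in shControl and 545 to 671 in shBrit1. GJB2 was 5.42-fold lower in shBrit1, at 9.15 ± 0.05 (SD, n = 4) beside 11.59 ± 0.09 (SD, n = 3) in shControl (log2 difference -2.44, SE 0.09, limma adjusted p = 2.17e-07). Only 51 of the 12372 genes (0.412%) had a difference as low. Without shControl replicate 3 it was 5.25-fold, and with the authors' log2 values the log2 difference was -2.32.

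GJA1 encodes connexin 43, the most widespread connexin, which in the breast is known from the myoepithelial layer. Its only probe was near background, detected on 1 of 3 shControl and on 4 of 4 shBrit1 arrays. The probe thus entered the test through the group where it was higher. The log2 signal was 5.04, 5.21 and 5.00 in shControl, and 5.72, 5.92, 5.95 and 5.75 in shBrit1, without overlap. It rose 1.68-fold (log2 difference 0.75, SE 0.10, adjusted p = 0.000263). The deposited signals of 81.5 to 96.3 and 117 to 129 show how small the gap was before correction. With the authors' log2 values the difference was 0.39, so the fold of this dim probe is uncertain.

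**Figure D3:**
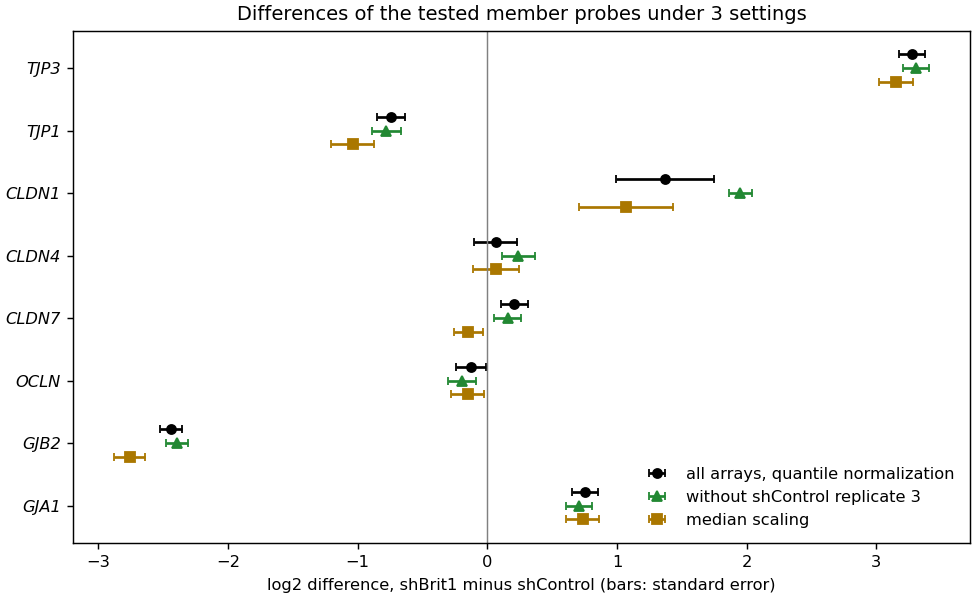
Log2 difference of shBrit1 minus shControl (x axis, bars are standard errors) for the 8 tested members (y axis) over all arrays, without shControl replicate 3, and with median scaling. TJP3 and GJB2 lie near 3.27 and -2.44, CLDN1 moves from 1.37 to 1.95 without that array, and CLDN7 changes sign with median scaling.

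Genes whose profile over the 7 arrays was nearest to TJP3, each profile centred on its own mean, were CYP4F3, a fatty acid hydroxylase (root mean square difference 0.105 log2), DBP, a clock-controlled transcription factor (0.105), and SBSPON, a matrix protein (0.110). DBP and SBSPON were not detected on any shControl array. Nearest to GJB2 were DUSP6, a phosphatase acting on ERK (0.0774), PGAM5, a mitochondrial phosphatase (0.0892), and DNMT1, the maintenance DNA methyltransferase (0.104). DUSP6 was not detected on any shBrit1 array. These genes were picked for this likeness, and it is given as a description.

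The other junction genes were read from 6 lists, which share AFDN. Of 71 tested genes 27 were higher and 18 lower, beside 29.5% higher and 30.1% lower among all genes. The median log2 difference of the 71 was 0.01, beside -0.01 for all genes. The groups did not overlap in 48 of the 71, near the 61.8% of all genes. Without shControl replicate 3 the counts were 33 and 21, while the calls over all genes rose as well, to 34.4% higher and 34.8% lower. With median scaling they were 21 and 22, beside 21.2% and 36.2% of all genes. Median scaling moved the median of all genes to -0.15 and its calls to 2625 higher and 4479 lower, from 3653 and 3718.

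**Figure D4:**
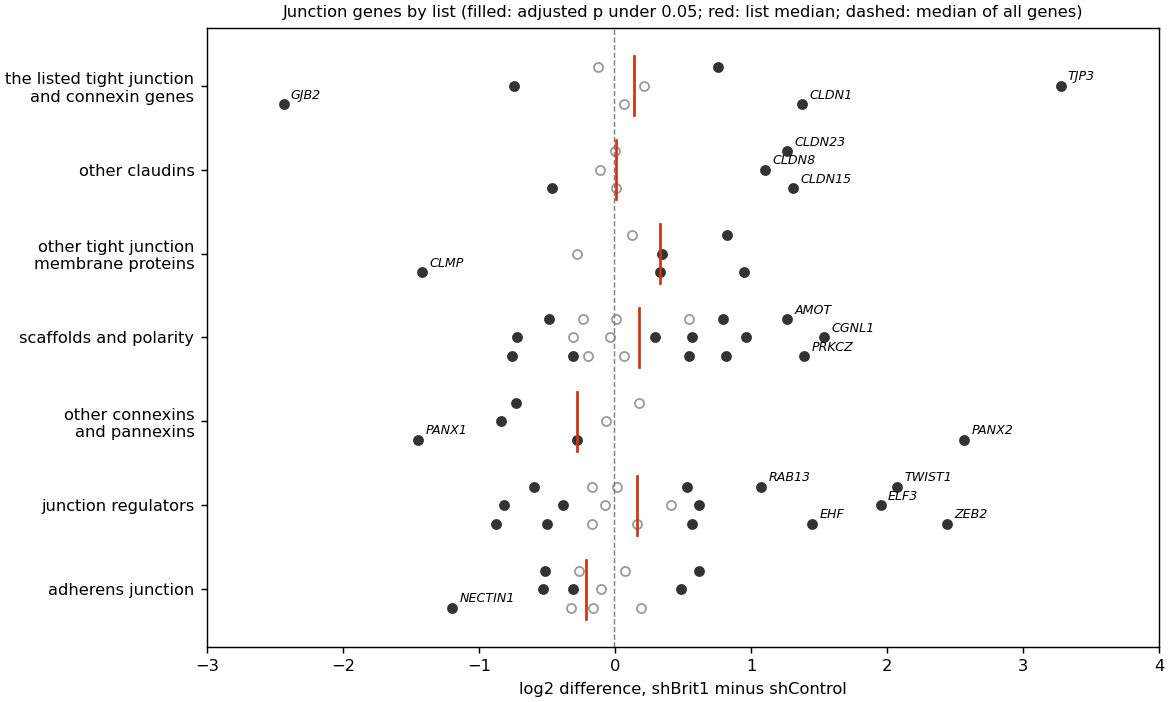
Log2 difference (x axis) of each tested gene, 1 probe per gene, by list (y axis). Filled points passed an adjusted p of 0.05, red lines are list medians and the dashed line is the median of all genes. Each list holds genes on both sides of 0, with medians from -0.28 for other connexins and pannexins to 0.33 for other tight junction membrane proteins.

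Of 19 other claudins with a probe 7 were tested, 3 higher and 1 lower (all genes 29.5% and 30.1%), with a median of 0.01. CLDN15, a cation pore claudin of the gut, was 2.47-fold higher, at 8.27 ± 0.14 (SD, n = 4) in shBrit1 beside 6.96 ± 0.03 (SD, n = 3) in shControl (limma adjusted p = 8.92e-06). CLDN23, a claudin of differentiated epithelia, rose 2.40-fold and CLDN8, a barrier claudin of the distal nephron, 2.15-fold. CLDN12 was 1.38-fold lower (log2 difference -0.46), and -0.29 without shControl replicate 3. The other 12, among them CLDN3 and CLDN6, had too few detected arrays.

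Of 7 other tight junction membrane genes 4 were higher and 1 lower (all genes 29.5% and 30.1%), with a median of 0.33. CXADR, the coxsackievirus and adenovirus receptor, was 1.76-fold higher (adjusted p = 0.000181). ILDR1, an angulin of tricellular junctions, was below detection on all 3 shControl arrays, which makes it at least 1.49-fold higher. CRB3, an apical polarity protein, was 1.25-fold higher, a call that was lost in several settings. Its second tested probe gave no call (log2 difference 0.08, limma adjusted p = 0.568). MARVELD3, a relative of occludin, was called higher on its brightest probe (1.27-fold) and lower on another (1.24-fold), so its direction is not settled. With median scaling CRB3 and MARVELD3 were no longer called. CLMP, an adhesion molecule, was 2.68-fold lower, and 3.44-fold without shControl replicate 3.

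Of 20 scaffold and polarity genes 9 were higher and 4 lower (all genes 29.5% and 30.1%), with a median of 0.18. Without shControl replicate 3 they were 11 and 5, in a setting that also called more of all genes (34.4% and 34.8%). CGNL1, which encodes paracingulin, was below detection on all 3 shControl arrays, and was higher in shBrit1 (limma adjusted p = 2.26e-06). Its rise was at least 2.19-fold on the background-corrected scale, while the log2 difference was 0.93 with the authors' log2 values. PRKCZ, an atypical protein kinase C of the Par complex, rose 2.62-fold and its partner PARD3 1.94-fold. Over the alternative settings the log2 difference of PARD3 ran from 0.52 to 1.02. AMOT, a junctional regulator of YAP detected on 1 of 3 shControl arrays, was called higher, with a log2 difference of 1.27 that was 0.69 with the authors' log2 values. The lower genes were DLG1 (1.69-fold, and 1.93-fold without shControl replicate 3) and SCRIB (1.40-fold), polarity proteins of the lateral membrane, LIN7C (1.65-fold, and 1.94-fold without it), an adaptor, and AFDN (1.24-fold), the actin linker of nectins.

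Of 7 other connexins and pannexins 1 was higher and 4 were lower (all genes 29.5% and 30.1%), with a median of -0.28. GJB5, a connexin gene of the skin, was 1.65-fold lower, at 9.57 ± 0.16 (SD, n = 4) in shBrit1 beside 10.30 ± 0.00087 (SD, n = 3) in shControl (limma adjusted p = 0.000369). GJA3, a lens connexin, was 1.79-fold lower, and GJC1 1.21-fold lower, a call lost without shControl replicate 3 (adjusted p = 0.0757). The channel genes of the pannexin family parted. PANX2 rose 5.92-fold (log2 difference 2.57, SE 0.17, adjusted p = 3.43e-06), while PANX1, which releases ATP, fell 2.73-fold (adjusted p = 0.000491), or 2.20-fold without shControl replicate 3. With the authors' log2 values the PANX2 difference was 1.85.

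Of 19 genes that regulate junctions 8 were higher and 5 lower (all genes 29.5% and 30.1%), with a median of 0.16. The epithelial ETS factors ELF3 and EHF rose 3.87-fold and 2.73-fold, EHF from detection on 2 of 3 shControl arrays. EHF was 3.14-fold higher without shControl replicate 3, and its log2 difference of 1.45 was 0.80 with the authors' log2 values. ZEB2, a repressor of epithelial genes, rose 5.42-fold (detected on 2 of 3 shControl arrays, limma adjusted p = 1.21e-06), and its log2 difference of 2.44 was 1.46 with the authors' log2 values. TWIST1, a factor of mesenchymal genes, rose 4.20-fold. GRHL2, an activator of claudin genes, was 1.76-fold lower, KLF4 1.41-fold lower, the membrane protease gene ST14 1.51-fold lower and the trafficking gene RAB14 1.84-fold lower. SNAI1 and SNAI2 did not pass the test (log2 differences 0.01 and -0.17, adjusted p = 0.940 and 0.586). ZEB1 was not detected on any array. The SNAI2 result depends on shControl replicate 3, which was 1.08 below the mean of the other controls. Its log2 signal was 10.57, 10.49 and 9.45 in shControl, and 9.95 to 10.04 in shBrit1. SNAI2 was not tested without that array. The factors known for activating epithelial junction genes thus did not all rise, and neither did those known for repressing them.

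Of 12 genes of the adherens junction 2 were higher and 4 lower (all genes 29.5% and 30.1%), with a median of -0.22. Without shControl replicate 3 they were 4 and 6, where 34.4% and 34.8% of all genes were called. NECTIN1 was 2.29-fold lower (limma adjusted p = 4.74e-05) and NECTIN3 1.44-fold lower, and both are cell adhesion receptors. Another tested NECTIN1 probe was also lower (log2 difference -0.96, adjusted p = 0.000276). A further, dim NECTIN1 probe gave no call (log2 difference -0.05, adjusted p = 0.774). NECTIN3 was called in 16 of 17 alternatives. CTNND1, the p120 catenin gene, was 1.43-fold lower (log2 difference -0.51), and -0.24 without shControl replicate 3. Its second tested probe gave no call (log2 difference -0.39, adjusted p = 0.137). NECTIN4 was 1.53-fold higher and JUP, which encodes plakoglobin, 1.40-fold higher with overlapping groups. They were 1.82-fold and 1.62-fold higher without shControl replicate 3. A second tested JUP probe gave no call over all arrays (log2 difference 0.20, adjusted p = 0.289). CDH1, the E-cadherin gene, did not pass the test (log2 difference -0.27, adjusted p = 0.0917).

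Markers of other cell types moved on the same arrays, where 29.5% of all genes were higher and 30.1% lower. Of 8 luminal markers 4 were higher and 0 lower, with GATA3 (log2 difference 2.48), ELF3, which is also in the regulator list, and MUC1 (1.22) higher, as was KRT19, with deposited signals of 75.3 to 84.5 below detection in shControl and 149 to 163 in shBrit1. They were 4 higher and 2 lower without shControl replicate 3 (all genes 34.4% and 34.8%). Their summed normalized signal was 10737 to 17949.5 in shControl and 24982 to 26948 in shBrit1. Without MUC1, set aside after the values were seen, it was 4268 to 10792 in shControl and 9842 to 10554 in shBrit1, and the groups overlapped. Of the 6 basal and general epithelial markers 1 was higher and 3 lower, with summed signals of 31973 to 61140 and 27253 to 29799. ITGB4 was higher (1.97-fold), while KRT14 (3.30-fold), KRT5 (1.58-fold) and EPCAM (1.63-fold, with overlapping groups) were lower in shBrit1. These folds depend on shControl replicate 3. On it ITGB4, KRT14 and KRT5 were 0.70, 1.70 and 0.64 above the mean of the other controls, and EPCAM 1.16 below. KRT14 read 12.82, 12.81 and 14.52 in shControl, and EPCAM 11.36, 11.38 and 10.21. Without that array 2 basal and general epithelial markers were higher and 3 lower (all genes 34.4% and 34.8%). Of 3 tested immune markers CD14 and CD68 were higher (6.39-fold and 3.96-fold), with summed signals over 6 genes of 572 to 607 and 1867 to 2336. CD68 gave most of that sum in both groups. Its mean log2 signal was 8.72 in shControl and 10.71 in shBrit1, beside 5.51 and 8.19 for CD14. The defining leukocyte genes CD3E and PTPRC were at or near background, CD3E on every array. Of 3 tested fibroblast markers 2 were higher and 1 lower, while PDGFRA, PDGFRB and THY1 were not detected on any array. Of 3 tested endothelial markers 0 passed the test. The part of these markers in the junction results was not tested, and in bulk RNA a change in the share of cells and in RNA per cell cannot be told apart.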

How the data were processed

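The deposited table gives, per the file headers, a bead signal (an intensity on a linear scale, not normalized between arrays: medians 75.9 to 87.6) and its detection p-value. The authors also deposited log2 values with the same median of 6.37 on every array, used as an alternative. For the scanner software, the sources used here give no name. Groups came from the sample titles. A line of stray text was left out (1 line). Names came from the supplied platform annotation (24782 of 48701 probes).

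Signals were background-corrected and normalized in limma 3.58.1 (R 4.3.3) with its neqc function (normexp using negative controls inferred from the detection p-values, offset 16, quantile normalization, log2). Probes were kept and tested as the report states, with lmFit and eBayes, two-sided, Benjamini-Hochberg over the 17967 kept probes. Genes took the probe with the highest mean. A bound ("at least") sets the brighter mean against the higher of the lowest detected signal and the probe's own. The code was tested on simulated data.

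All 8 measured members are named, and up to 4 higher and 4 lower genes with the smallest p-value among those called from each list, and the 3 genes nearest in profile to TJP3 and to GJB2. CDH1, CLDN3, CLDN6, SNAI1, SNAI2, ZEB1 and single marker genes were chosen after their values were seen. Alternatives covered background correction, normalization, the filter, eBayes settings, array weights, a replicate block and each array left out. The members and lists were chosen with earlier results of these data known.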

Additional observations from a re-analysis of the deposited data

Results flagged for a closer look

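On shBrit1 replicate 3 the TJP3 signal was 9.09 on the log2 scale, beside 9.23 to 9.25 on the other 3 shBrit1 arrays, far enough below them to stand out by Dixon's test for 4 samples. Such a test picks out about 1 in 20 groups by chance, and it was met by 1 of 43 probes examined. The gap is small beside the distance to the shControl arrays, the highest of which was at 6.03. Groups of 3, such as shControl, were not examined with this test, so it says nothing about shControl replicate 3.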

How the results depend on the processing

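The direction and call of TJP3, TJP1 and GJB2 held in all 17 alternatives and those of GJA1 in all 16 that kept its probe. Log2 differences ran from 2.40 to 3.33 for TJP3, from -1.04 to -0.67 for TJP1, from -2.76 to -2.32 for GJB2 and from 0.39 to 0.82 for GJA1. Leaving out each array in turn, CLDN1 ranged from 1.07 to 1.95 and lost its call without shControl replicate 2 (adjusted p = 0.0507). CLDN4 ranged from -0.023 to 0.24 over these, was -0.011 with the replicate number as a block, and was called at 0.28 with array quality weights (adjusted p = 0.0244). Those weights also called OCLN, at -0.22 (adjusted p = 0.0494). CLDN7 was -0.15 with median scaling, where the median of all genes was also -0.15. The replicate block changed no member's call. Replicate 4 exists only in shBrit1, so with the block that array adds nothing to the differences, which equal those without it. Same-numbered arrays did not deviate together across groups (correlations 0.10, -0.02 and 0.09), so the numbers were not taken as pairs. The probes called higher and lower were 4829 and 4840, with the block 4252 and 4205, and 3589 and 5690 with median scaling. CLDN4, OCLN and GJA1 have no value when detection on all 7 arrays is required. The 35 genes picked by p-value from the other junction lists kept their direction in each of 588 recomputed values, and 47 of these lost the call. GJC1 was called in only 3 of 16 alternatives, CTNND1 in 7 of 17, and CRB3 and JUP in 9 of 17 each. The size varied for genes of low signal that kept their call. Log2 differences ran from -0.96 to -0.41 for DLG1 and from -0.96 to -0.40 for LIN7C. They ran from -0.90 to -0.47 for GRHL2 and from -1.01 to -0.45 for RAB14. Other named genes, such as CDH1 and the single markers, were not followed gene by gene through the alternatives. The causes were not tested, and dim probes limit what can be read for CLDN4, OCLN and GJA1.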
